A study of Mus musculus with 10 samples.

Results

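The clustered protocadherin genes lie in 3 neighbouring clusters, alpha, beta and gamma, on mouse chromosome 18. The positions described here are all cytosines of the deposited methylation table from 36900000 to 37850000 on that chromosome (mm10). They number 1769 of the 2137822 positions in the table. The interval was split at the ends of the genes named Pcdha, Pcdhb and Pcdhg in the RefSeq gene table of GRCm38, which lists 14 alpha, 22 beta and 22 gamma genes, 58 in all. One of them, Pcdhgb8, is listed as a transcribed pseudogene.

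Protocadherins are adhesion molecules of the cadherin superfamily that neurons carry on their surface. In the alpha and gamma clusters each gene has a large variable exon of its own, with its own promoter, which encodes the extracellular and membrane-spanning parts. The variable exon is spliced to a few constant exons shared by the whole cluster, which encode the common cytoplasmic end. The beta genes consist of a variable exon only. A neuron uses a small selection of these promoters, which are known to be bound by CTCF, and methylation of a promoter is known to keep it silent. In the mouse embryo this methylation is known to depend on Dnmt3b. The last genes of the alpha and gamma clusters, called C-type, differ from the others in sequence and are expressed more evenly among neurons.

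The study sampled mouse embryos at embryonic day 7.5, and of its 10 samples 5 are titled control and 5 arsenic. The labels give no strain, sex, arsenic dose, exposure time or number of embryos per sample. Methylation was measured by reduced representation bisulfite sequencing, which reads the CpG-rich part of the genome after unmethylated cytosines have been converted. The table has 10 sets of counts numbered 1 to 10, here called library columns, and no number matches 1 sample title alone. No column was therefore assigned to a sample or group, arsenic was not compared with control, and no test between groups was made. Any difference between the groups lies within the ranges over the columns. Because nothing links the columns to separate embryos, these ranges may reflect technical as well as biological spread.

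The level is the number of methylated reads divided by all reads at a position, in percent. Levels of a region are summed calls over summed coverage. The error given is the range over the 10 columns. No position had fewer than 10 reads in any column, and the median coverage of a position of the interval was 29 to 50 reads, against 26 to 48 for an autosomal position. A total of 638 CpGs were measured on both strands, with a median absolute difference between the strands of 2.90 percentage points. Embryos contain many cell types, so partial methylation in all cells, methylation in some of the cells and methylation of 1 allele cannot be told apart.

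The protocadherin locus was less methylated than the autosomes as a whole, and the 3 clusters differed from each other. The level of the whole interval was 29.4%, with a range over the columns from 27.4% in column 8 to 30.8% in column 2. All autosomal positions together had 42.2%, with a range from 40.2 to 44.5%, a range that does not overlap that of the interval. The alpha cluster, from 36930285 to 37188897, had 30.5% over 481 positions, and its columns ran from 27.7 to 33.1%. The beta cluster, from 37264998 to 37521419, had 41.4% over 165 positions, its columns running from 37.5 to 46.0%. The gamma cluster, from 37661775 to 37841873, had 22.6% over 924 positions, its columns running from 21.5 to 23.7%. The order beta, alpha, gamma was found in each of the 10 columns. The beta cluster exceeded the alpha cluster by 8.39 to 16.4 points within a column. The alpha cluster exceeded the gamma cluster by 5.85 to 9.84 points.

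Summed over the clusters, the variable exons were less methylated than the spaces between them. No exon annotation was used, so a variable exon was taken as the first 2500 bp from the gene start, or up to the gene end where that came earlier. Most genes of the alpha and gamma clusters share 1 end and differ in the other, and the end that differs was taken as the start. The beta genes were taken to be read in the same direction. The variable exons together had a level of 23.7% over 1309 positions, and ranged over the columns from 22.3 to 25.2%. The spaces between the exons inside the clusters had 51.6% over 166 positions, with a range from 47.8 to 55.4%. Outside the clusters but inside the interval the level was 47.9% over 199 positions, and its columns ran from 44.8 to 51.5%. The spaces inside the clusters exceeded the exons by 25.5 to 30.8 points, in 10 of 10 columns. The summed levels of the spaces and of the exons did not overlap between columns. These sums mix the clusters in unlike shares, and 847 of the 1309 exon positions lay in gamma exons.

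**Figure D1:**
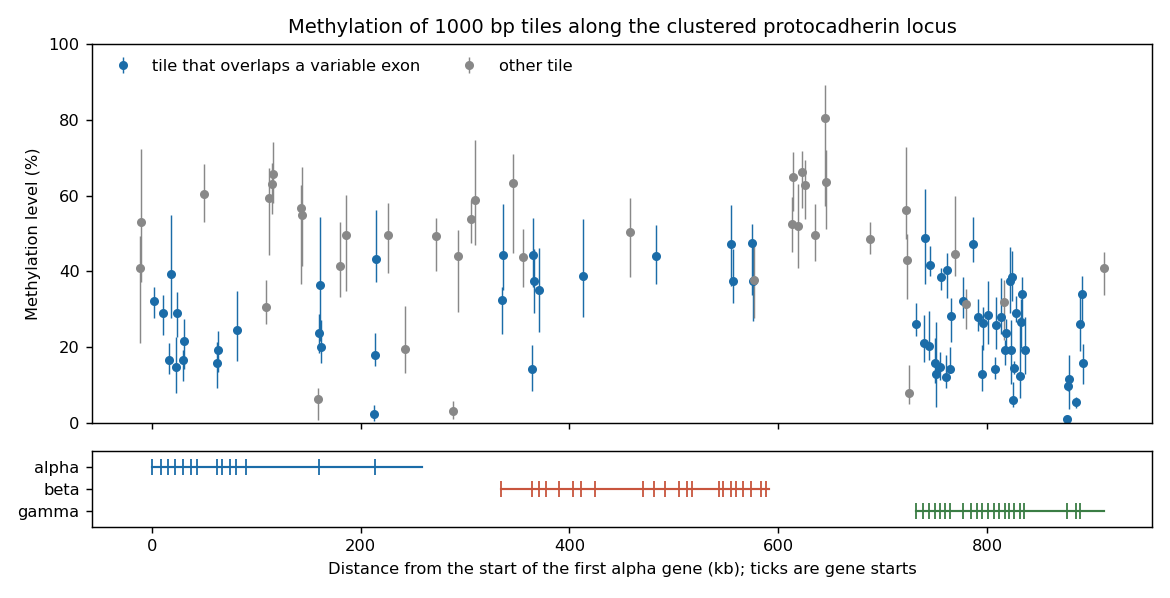
Methylation level in percent (y axis) of the 109 tiles of 1000 bp with at least 3 measured positions, against the distance in kb from the start of the first alpha gene (x axis). Points are the 10 columns summed, bars run from the lowest to the highest column, and the lower panel shows the clusters with a tick at each gene start. Tiles that overlap a variable exon lie below 50%, and most other tiles lie above 40%.

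Tiles of 1000 bp, which group the same positions, gave a similar picture. Of the 109 tiles of the interval with at least 3 positions, 30 had a level under 20%, 78 a level from 20 to 80% and 1 a level above 80%. The median tile had 32.4%, against 56.8% over 180573 autosomal tiles, of which 13.9% were under 20% and 7.35% above 80%. The 70 tiles that overlap a variable exon ranged from 1.06 to 48.9%, with a median of 26.2%. Such a tile can also hold positions outside the exon. The one from 37822000 to 37822999 had 15.9%, and the Pcdhgc5 exon window ends at 37822045. The 17 tiles in the spaces inside the clusters had a median of 49.5%, and the 20 tiles outside the clusters 52.2%. In the gamma cluster the space tiles had 31.4, 32.0 and 44.7%, within the range of the gamma exons, 5.46 to 47.1%. In the beta cluster the space tiles ran from 37.6 to 63.3%, and the beta exons from 33.9 to 47.7%. The tile at 37.6% begins 2.757 kb after the start of Pcdhb20, inside that gene but beyond the 2500 bp taken as its exon. The next lowest space tile of the beta cluster had 43.9%, which is still within the range of the beta exons. The plot of tiles along the locus shows many exon tiles as low groups within a more methylated surrounding, less clearly inside the beta and gamma clusters.

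Most positions of the variable exons were neither unmethylated nor fully methylated. Of the 1309 positions, 24.2% had a level under 10%, 66.4% a level from 10 to 50%, 9.40% a level from 50 to 90%, and none was above 90%. Among all autosomal positions, 30.8% were under 10%, only 21.2% lay from 10 to 50%, and 1.89% were above 90%. Among positions in the first 2500 bp of other autosomal protein-coding genes, 82.7% were under 10%, 11.7% lay from 10 to 50%, and 0.121% were above 90%. Positions above 90% were thus rare in these sets as well. The other protein-coding genes are those whose strand is given by the RefSeq promoter table. The C-type exons had 48.3% of their positions under 10%, the alpha exons 19.2% and the beta exons 2.42%.

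Methylation falls with the density of CpGs in mammalian genomes, so levels were also compared at the same number of measured positions within 100 bp. Where more than 15 positions lay within 100 bp, the alpha, beta, gamma A and gamma B exons had a level of 20.1% over 285 positions, and the columns ran from 18.4 to 21.4%. The first 2500 bp of other protein-coding genes had 3.14% at this density, with a range from 2.99 to 3.39%. All autosomal positions of this density had 13.7%, with a range from 12.8 to 15.1%. The columns of these exons together overlapped neither. This did not hold for each type. The alpha exons had 21.5% and the gamma A exons 20.8%. The beta exons had 13.1% over 8 positions, all in Pcdhb1, and the gamma B exons 15.4% over 24 positions, in Pcdhgb2 and Pcdhgb4. The columns of these beta and gamma B positions ran from 7.14 to 17.6% and from 13.2 to 19.6%, which overlap those of the autosomes. The C-type exons, which are not in this set, had 13.0% over 174 positions, with columns from 11.3 to 16.3%, which also overlap those of the autosomes. At 6 to 15 positions the same exons had 27.6%, against 13.3% in other gene starts and 48.1% over all autosomal positions. At 5 positions or fewer the exons had 35.6%, with a range from 34.1 to 37.5%, against 32.6% in other gene starts, with a range from 31.4 to 34.3%, which overlap.

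**Figure D2:**
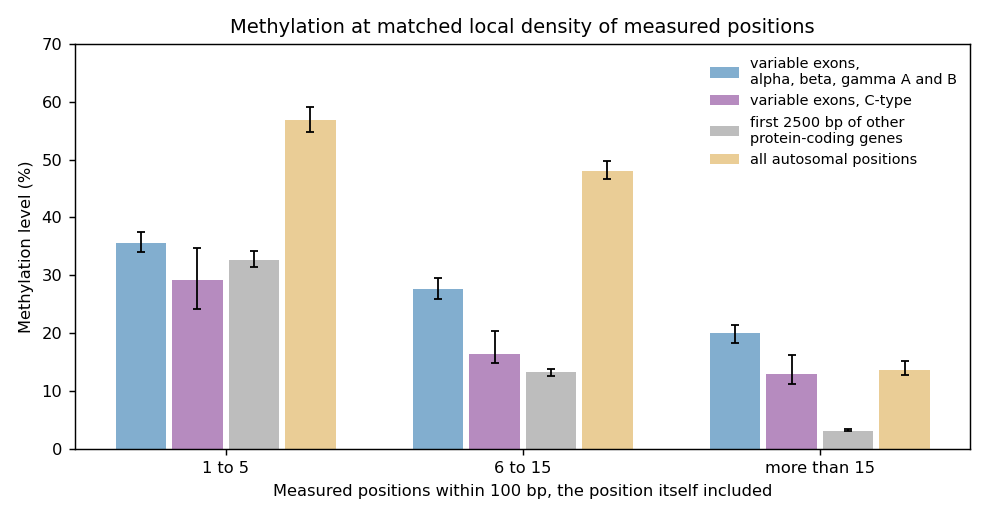
Methylation level in percent (y axis) of 4 sets of positions in 3 classes of local density (x axis). Bars are the 10 columns summed and start at 0, and whiskers run from the lowest to the highest column. At more than 15 positions within 100 bp, the protocadherin exons without the C-type reached 20.1% and other gene starts 3.14%.

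Single variable exons spanned a broad range of levels. Of the 58 genes, 38 had at least 3 measured positions in the variable exon, namely 9 of 14 alpha, 7 of 22 beta and 22 of 22 gamma genes. The other 5 alpha and 15 beta genes had no measured position there. The variable exons are similar in sequence, and how reads that match several copies were treated is not given in the sources used here. Its part in the missing exons and in the levels was not tested. Of the 38 exons, 10 had a level under 20% and 28 a level from 20 to 80%, and none was above 80%. Their median was 28.0%. Among 10361 other autosomal protein-coding genes measured over the first 2500 bp, 77.4% were under 20%, only 0.415% were above 80%, and the median was 3.24%.

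**Figure D3:**
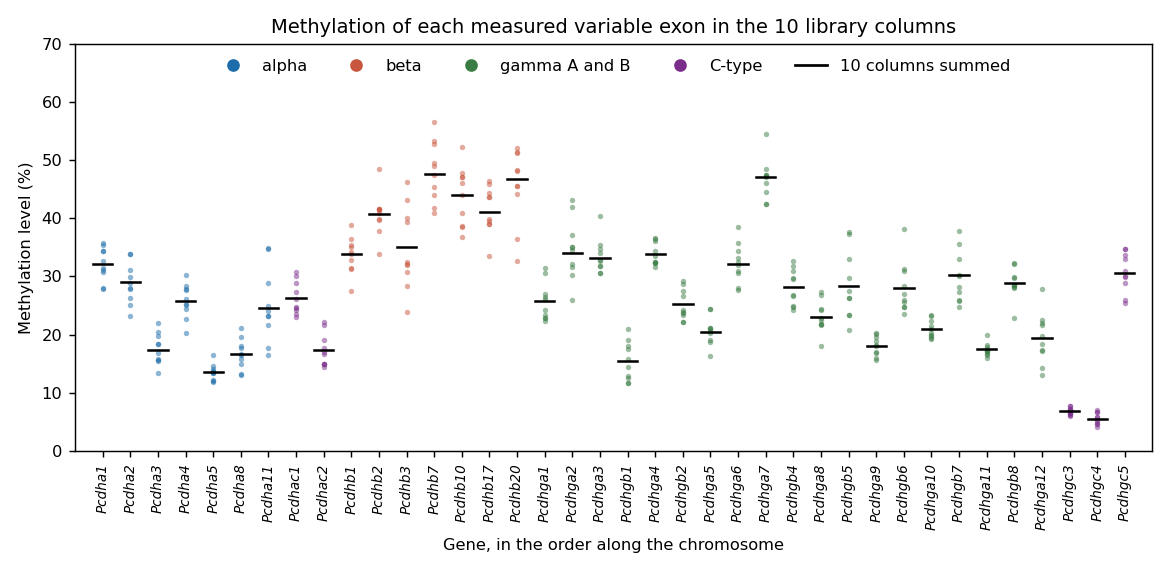
Methylation level in percent (y axis) of the 38 measured variable exons in their order along the chromosome (x axis). Each dot is 1 library column and each black line the 10 columns summed. Pcdhgc3 and Pcdhgc4 lie below 8% in each column, and Pcdhb7, Pcdhga7 and Pcdhb20 have the highest summed levels.

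The order of the exons was similar in all columns. Spearman's rho of the 38 exon levels between pairs of columns lay between 0.807 and 0.926 over the 45 pairs. This is a correlation across exons, which share a library within a column. Neighbours in the order mostly did not differ beyond their spread. Of the 37 neighbouring pairs, 1 had columns that did not overlap. That pair was Pcdhgc3 and Pcdha5, which separates the lowest exons from all others.

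The alpha exons, which encode receptors first described as cadherin-related neuronal receptors, had low to intermediate levels. The lowest was Pcdha5, from 36960276 to 36962775, with 13.5% over 35 positions (95% Wilson interval 13.0 to 14.0%). The columns ranged from 11.8% in column 7 over a median of 13.5% to 16.5% in column 2. The highest level in the cluster was that of Pcdha1, the first gene of the cluster, from 36930285 to 36932784, with 32.1% over 30 positions (interval 31.4 to 32.8%). Single columns ran from 27.8% in column 7 over a median of 32.0% to 35.8% in column 9. The columns of Pcdha5 and Pcdha1 did not overlap. Pcdha8 had 16.7%, Pcdha3 17.3%, Pcdha11 24.5%, Pcdha4 25.8% and Pcdha2 29.1%. Pcdha5, Pcdha8 and Pcdha11 were measured only in the first 1000 bp of the exon and Pcdha1 and Pcdha2 only beyond it, so their order is not that of the same part of the exon. Intervals here and below cover counting error only, and are too narrow where 1 read spans several positions.

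The beta exons had the highest levels of the clusters. All 7 measured exons lay from 20 to 80%, with a median of 41.1%. The lowest was Pcdhb1, from 37264998 to 37267454, with 33.9% over 26 positions (interval 33.2 to 34.6%). Its columns ran from 27.4% in column 3 over a median of 34.0% to 38.8% in column 2. Pcdhb7 was the highest of all measured exons, from 37341702 to 37344201, with 47.7% over 8 positions (interval 45.6 to 49.8%). Its levels per column ran from 40.9% in column 6 over a median of 48.2% to 56.5% in column 10. These columns did not overlap those of Pcdhb1. The 2 exons were measured in unlike parts, with 23 positions of Pcdhb1 in the first 1000 bp and 6 of Pcdhb7 beyond it. From 1000 to 2500 bp Pcdhb1 had 44.4% over 3 positions, with columns from 35.2 to 57.8%. Pcdhb7 had 38.7% there, with columns from 28.0 to 53.8%, so the order was reversed and the columns overlapped. Pcdhb3 had 35.0% over 6 positions, Pcdhb2 40.7%, Pcdhb17 41.1%, Pcdhb10 44.1% and Pcdhb20 46.8%. Pcdhb3 was measured only in the first 1000 bp, and Pcdhb10 and Pcdhb20 only beyond it. The order of the beta exons is therefore not that of the same part of the exon.

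The summed beta exons exceeded the alpha exons by 15.5 to 22.1 points and the gamma exons by 13.5 to 20.4 points, in 10 of 10 columns each. The beta exons also held fewer dense positions. Of their 124 positions, 8 had more than 15 positions within 100 bp, against 107 of 214 in the alpha exons without the C-type. At 6 to 15 positions within 100 bp, the beta exons had 42.1%, with a range from 36.7 to 46.9%. The alpha exons without the C-type had 21.0% at that density, with a range from 16.7 to 24.6%, so the columns did not overlap there. The 8 beta positions with more than 15 positions within 100 bp all lay in Pcdhb1. They had 13.1%, with a range from 7.14 to 17.6%, against 21.5% in the alpha exons without the C-type at that density. The alpha and gamma exons as a whole, at 21.6% and 22.1%, differed by -2.55 to 1.38 points, with alpha higher in 4 of 10 columns.

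The gamma cluster interleaves A-type and B-type genes. The 12 A-type exons had a median level of 24.4% and ranged from 17.4% in Pcdhga11 to 47.1% in Pcdhga7. The 7 B-type exons had a median of 28.1% and ranged from 15.5% in Pcdhgb1 to 30.2% in Pcdhgb7. Over summed calls the A-type exons had 24.6% and the B-type exons 26.7%. The A-type lay below the B-type in 10 of 10 columns, with differences from -5.09 to -0.345 points, while the ranges of both over the columns, 23.0 to 25.6% and 24.7 to 30.2%, overlapped. The genes were not all measured over the same parts of the exon. In the first 1000 bp the median was 19.3% over 11 A-type genes and 15.8% over 5 B-type genes. From 1000 to 2500 bp it was 33.9% over 10 A-type genes and 29.1% over 6 B-type genes. Within both parts the order of the medians was thus reversed. Pcdhga7, from 37714834 to 37717333, had columns from 42.4% in column 10 over a median of 47.2% to 54.5% in column 1. Its 10 positions all lay beyond the first 1000 bp. Pcdhga11, from 37755773 to 37758272, was measured over 87 positions, with a column median of 17.1%, and each of its columns lay below each column of Pcdhga7.

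The remaining gamma exons lay between these ends. Among the A-type, Pcdhga2 had 34.0%, Pcdhga4 33.9% and Pcdhga3 33.1%, with columns from 25.9 to 43.2%, from 31.6 to 36.6% and from 30.5 to 40.5%. Pcdhga6 had 32.1% over 12 positions, and Pcdhga1, the first gene of the cluster, 25.7% over 15 positions. Pcdhga8 had 23.1%, Pcdhga10 20.9%, Pcdhga5 20.4% and Pcdhga12 19.3%. Pcdhga9 had columns from 15.6 to 20.2%, with a median of 18.1%. Along the chromosome, Pcdhga8 and the A-type exons after it had lower levels than those before it other than Pcdhga5. Among the B-type, Pcdhgb8 had 28.8%, Pcdhgb5 28.4%, Pcdhgb4 28.1%, Pcdhgb6 27.9% and Pcdhgb2 25.2%. These B-type exons overlapped each other in their columns. Pcdhgb1 had the lowest B-type level, with columns from 11.6 to 21.0%. These overlapped the columns of Pcdhgb5, from 20.8 to 37.6%, but not those of Pcdhgb2, from 22.1 to 29.2%.

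The C-type genes held both the lowest exons of the locus and exons of average level. Pcdhgc4 was the lowest of all 38, from 37815079 to 37817578, with 5.46% over 41 positions (interval 5.11 to 5.83%). Over the columns it ran from 4.09% in column 1 over a median of 5.50% to 6.97% in column 9. Pcdhgc3, from 37806410 to 37808909, had 6.80% over 112 positions. Its columns ran from 5.95% in column 10 over a median of 6.77% to 7.76% in column 9. Pcdhgc3 exceeded Pcdhgc4 in 8 of 10 columns, and their ranges overlapped.

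Pcdhgc5, the last gene of the cluster, from 37819546 to 37822045, had 30.6% over 38 positions (interval 29.9 to 31.3%). Single columns ran from 25.5% in column 1 over a median of 30.5% to 34.8% in column 3. It exceeded its neighbour Pcdhgc4 by 21.4 to 29.0 points and Pcdhgc3 by 19.1 to 27.6 points, in 10 of 10 columns. The C-type genes of the gamma cluster therefore did not form 1 group by level. Pcdhgc4 was measured only within 1000 bp of its start. In that part Pcdhgc5 had 26.8%, with columns from 20.1 to 35.7%, and Pcdhgc3 2.68%, with columns from 2.07 to 3.32%.

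In the alpha cluster, Pcdhac1, from 37090136 to 37092635, had 26.3% over 53 positions (interval 25.8 to 26.9%). Values per column ran from 23.0% in column 8 over a median of 25.4% to 30.7% in column 2. Pcdhac2, from 37143678 to 37146177, had 17.3% over 71 positions (interval 16.8 to 17.7%). Its columns ran from 14.5% in column 3 over a median of 16.8% to 22.2% in column 2. Pcdhac1 exceeded Pcdhac2 by 5.79 to 15.2 points, in 10 of 10 columns. This held for the first 1000 bp, with 27.6% in Pcdhac1 and 14.4% in Pcdhac2, but not for the later part. From 1000 to 2500 bp Pcdhac1 had 22.3%, with columns from 17.1 to 30.4%. Pcdhac2 had 23.9% there, with columns from 20.2 to 30.0%, which overlap. The 7 positions in the tile that holds the start of Pcdhac2, from 37143000 to 37143999, had 2.33%, with columns from 0.461 to 4.66%. The tile with the start of Pcdhgc3, from 37806000 to 37806999, was the lowest of the interval, at 1.06% over 46 positions, with columns from 0.525 to 1.52%.

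Levels rose with the distance from the gene start and levelled off within the exon. Over all protocadherin genes they were 11.7% in the first 250 bp, with a range from 10.2 to 12.8%, and 18.4% from 500 to 750 bp. From 750 to 1000 bp they reached 29.0%, with a range from 26.8 to 32.8%, and stayed between 27.2 and 31.3% in each bin of 250 bp up to 2500 bp. The genes measured differ from bin to bin. Other autosomal protein-coding genes had 3.80% in the first 250 bp and 9.19% from 750 to 1000 bp, with ranges from 3.54 to 4.17% and from 8.73 to 9.74%. They reached 28.4% from 2000 to 2250 bp, where the protocadherin genes had 30.3% and the ranges overlapped. From the gene start to 2000 bp the ranges of both sets did not overlap in any bin.

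**Figure D4:**
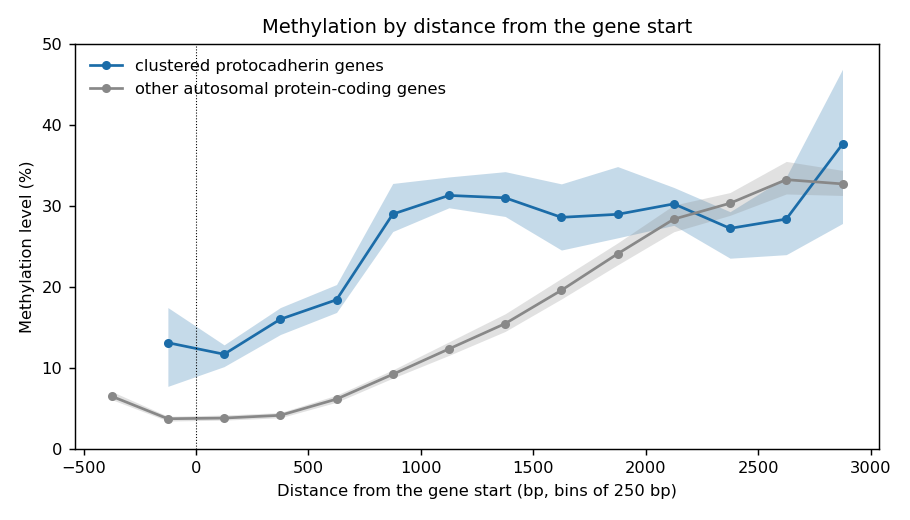
Methylation level in percent (y axis) against the distance from the gene start in bp (x axis), in bins of 250 bp. Lines join the 10 columns summed for clustered protocadherin genes and for other autosomal protein-coding genes, and bands run from the lowest to the highest column. From 750 to 1000 bp the protocadherin genes lie at 29.0% and the other genes at 9.19%.

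The types also differed within single bins. In the first 250 bp the C-type exons had 13.9% over 3 genes, with columns from 11.7 to 18.2%, above the gamma A exons at 8.42% over 6 genes, with columns from 6.76 to 10.5%. Over whole exons the C-type lay below gamma A. The value of the first bin pools genes, and C-type genes differed near their starts. In the first 1000 bp Pcdhgc3 had 2.68%, Pcdhgc4 5.46% and Pcdhac2 14.4%, while Pcdhgc5 and Pcdhac1 lay higher. From 500 to 750 bp the beta exons had 42.5% over 4 genes, with columns from 36.5 to 47.6%. The alpha exons without the C-type had 14.1% over 5 genes in this bin, with columns from 12.2 to 15.2%, and the columns of the gamma A exons ran from 15.6 to 19.8% over 8 genes, with a median of 16.9%. The beta columns overlapped neither. The C-type exons measured from 750 to 1000 bp and from 1250 to 1500 bp, 2 genes in each bin, had 13.6% and 14.9%. The gamma A exons had 29.4% and 34.4% in these bins, with no overlap of the columns. This does not describe all C-type genes, since Pcdhac1 had 27.6% in its first 1000 bp and Pcdhgc5 26.8%.

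A total of 22 protocadherin genes had at least 3 positions both in the first 1000 bp and from 1000 to 2500 bp. In 18 of them the later part had the higher summed level, and in 12 it was higher in each column. The median difference was 11.3 points. With the exon split at 1250 bp in place of 1000 bp, the later part was higher in 9 of 14 genes and the median difference was 5.22 points. At the split of 1000 bp, such a rise was as common among other genes, of which 81.8% of 3211 had a higher later part, with a median difference of 10.2 points. In Pcdhgb2 the level rose from 9.90% to 41.5%, the largest difference, and in Pcdhga4 from 26.4% to 54.1%. Pcdhgb4 went the other way, from 42.1% over 6 positions to 27.3% over 33 positions, in 10 of 10 columns. Pcdhb17 had 47.1% in the first part and 37.5% in the later part, and was lower in the later part in 9 of 10 columns.

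Restricting the genes to the first 1000 bp left 30 with at least 3 positions. Their median level was 18.6%, and 16 of them were under 20%. Pcdhgc3 at 2.68% and Pcdhgc4 at 5.46% were again the lowest, followed by Pcdhga11 at 9.63% with columns from 7.20 to 12.6% and Pcdhgb2 at 9.90% with columns from 6.74 to 15.1%. The columns of Pcdhgc4 overlapped those of Pcdhgb2. The 4 beta genes measured there had a median of 36.9% and the 5 alpha genes without the C-type 16.5%. Among other protein-coding genes measured in both parts, 87.4% had a first part under 20%, with a median of 1.87%. Of the 22 protocadherin genes measured in both parts, 59.1% had a first part under 20%, with a median of 17.2%.

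Sequence just upstream of the gene starts was hardly covered. Of the 58 windows of 500 bp before a gene start, 2 had at least 3 positions. The window of Pcdhac1, from 37089636 to 37090135, had 15.3% over 31 positions, with columns from 8.30% in column 8 over a median of 15.1% to 20.7% in column 10. The 9 positions in the tile from 37089000 to 37089999, farthest from the gene start within it, had 6.43%, with columns from 0.822 to 9.16%. The window of Pcdhga11, from 37755273 to 37755772, had 8.31% over 13 positions, with columns from 6.64 to 11.3%. The exon of Pcdhga11 lay above this window, at 17.4%, with no overlap of the columns. Of 5605 such windows of other protein-coding genes, 87.9% were under 20%.

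The shared constant exons could not be resolved. The last 1000 bp before the shared end of the alpha cluster at 37187657 and of the gamma cluster at 37841870 held no measured position. The stretch from the last variable exon to the end of the cluster, which contains the constant exons and the introns between them, was used in their place. In the alpha cluster it had 42.0% over 18 positions, with columns from 36.7 to 47.4%, and exceeded the variable exons by 15.6 to 24.7 points in 10 of 10 columns. Within it, 7 positions from 37172356 to 37172605 had 19.6%, with columns from 13.1 to 30.8%. In the gamma cluster the stretch had 15.2% over 30 positions, with columns from 8.28 to 20.1%, and lay below the variable exons in 10 of 10 columns, with differences from -15.2 to -2.48 points. Of these, 27 lay within 1000 bp of the variable exon window of Pcdhgc5, and the last was 16825 bp short of the shared end. This value therefore says little about the gamma constant exons. Beyond the gamma genes, 28 positions between the cluster and the gene Diaph1 had 40.9%, with columns from 33.8 to 45.1%.

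Some stretches away from any variable exon were also low. Between the alpha and beta clusters, 17 positions from 37218164 to 37218354 had 3.25%, with columns from 1.06 to 5.77%. They begin 29.3 kb after the end of the alpha cluster, and 46.6 kb separate them from Pcdhb1. The gene table lists no gene start within it, and the genes that span it, Gm37013, Gm38666 and Gm38667, run from the alpha cluster to the end of the gamma cluster. The alpha cluster is known to have distal enhancers beyond its constant exons, but the sources used here give no enhancer positions, so this stretch was not assigned. Upstream of the gamma cluster, 14 positions from 37655533 to 37655668 had 7.86%, with columns from 5.12 to 15.3%, and the last of them lay 6.11 kb before the start of Pcdhga1. Apart from these stretches, the lowest of the 20 tiles outside the clusters had 40.8%.

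Dense stretches away from the exons could also be highly methylated. Between Pcdha12 and Pcdhac1, 20 positions from 37045756 to 37045971 had 63.1%, and the next 21 positions, up to 37046266, had 65.8%. Their columns ran from 55.0 to 68.6% and from 58.1 to 74.1%. The 30 positions in the spaces inside the clusters with more than 15 positions within 100 bp had 67.0%, with a range from 64.1 to 71.2%. They include positions of the stretches just given, so this is not a separate result. The 459 dense positions of the variable exons had 17.3%. The highest tile of the interval, from 37575000 to 37575999 between the beta and gamma clusters, had 80.4% over 3 positions.

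The spread between columns was close to that elsewhere. Among tiles with a level from 20 to 80% and more than 15 positions, the median range over the columns was 12.4 points in the interval and 13.1 points over the autosomes. With 6 to 15 positions it was 15.6 and 17.6 points, and with 3 to 5 positions 21.8 and 22.2 points. The widest range, 35.3 points, was that of the tile from 36920000 to 36920999 before the alpha cluster, with 5 positions in the pseudogene Gm6756. Over the columns it ran from 37.2 to 72.4%. Column 9 was the highest in 8 of the 38 exons and column 8 the lowest in 7. Column 9 was also the highest over all autosomal positions, at 44.5%, and column 8, at 40.8%, was the lowest there after columns 6 and 5.

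The non-clustered protocadherins, which lie elsewhere in the genome and also act in adhesion, had a lower median level. Of 12 genes of this list, 8 were measured over the first 2500 bp, and all 8 were under 20%, with a median of 6.01%. They ranged from 4.06% in Pcdh18, on chromosome 3, to 17.5% in Pcdh20, on chromosome 14, and Pcdh8 had 14.0% over 143 positions. Genes known to regulate the clusters were measured for 13 of 21 listed names, and 11 of these, or 84.6%, were under 20%, near the 77.4% among other protein-coding genes. Among the names of both lists, Pcdh1, Pcdh12, Pcdh11x, Rad21, Stag2, Nipbl and Rest had no strand in the RefSeq promoter table. Their coverage was therefore not examined. The insulator protein gene Ctcf had 1.05%, the chromatin protein gene Smchd1 1.00% and the methyltransferase gene Dnmt3b 1.83%, with columns from 0.882 to 5.55%. Those above 20% were Dnmt1 at 69.2% and Dnmt3l at 21.5%. The start taken from the gene table need not be the promoter used in the embryo.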

How the data were processed

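Reduced representation bisulfite sequencing was done on DNA of embryos, per the labels' protocols. Trim Galore, Bismark, methylKit and the build mm10 appear in the submitters' processing notes. Tool versions and settings were among the things not given in the sources used here. Per the file headers, what the authors deposited is 1 table of unnormalized counts, with covering, methylated and unmethylated reads for each position in each column. Of 2137826 rows, 4 were left out because their position was listed more than once.

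No column name matched 1 sample title alone, and the planned comparison of arsenic with control was not made. Values are given per column or summed. The members and lists were chosen with earlier results of these data known. Genes named are all protocadherins with at least 3 measured positions in the variable exon or upstream window, with column values for the lowest and highest of each cluster and the C-type genes; other parts of exons, tiles and list genes were chosen after their values were seen. Gene limits came from the RefSeq table of GRCm38.p6, the assembly of mm10, and strands of other genes from 17492 entries of the RefSeq promoter table. The level script was tested on simulated data. Python 3.11.15, numpy 2.4.6, pandas 2.3.3 and scipy 1.17.1 were used. Alternatives covered the coverage minimum, weighting, most covered positions, window and tile sizes, the number of positions and each column.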

Additional observations from a re-analysis of the deposited data

Results flagged for a closer look

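Of 49 measures examined over the 10 library columns (levels of clusters, classes and exons), 5 had 1 column that lay apart from the others by Dixon's criterion for 10 values. Chance flags about 1 in 20 groups, and the columns hold samples of 2 groups that were not told apart. The exon of Pcdhb2 had 48.5% in column 9, and the nearest other column 41.6%. The exon of Pcdhga3 had 40.5% in column 9, and the nearest other column 35.4%. The exon of Pcdhga7 had 54.5% in column 1, and the nearest other column 48.6%. The exon of Pcdhgb6 had 38.2% in column 6, and the nearest other column 31.3%. The exon of Pcdhgb8 had 22.9% in column 8, below the nearest other column at 28.1%.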

How the results depend on the processing

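Most of the values moved by less than 1 SD over the columns, or by less than 1.5 times for counts. At 20 reads in every column, which left 1079 of 1769 positions, the gamma cluster had 23.9%, its variable exons 23.1% and the alpha constant stretch 48.5%. Of 34 exons then measured, 5 moved by more than 1 SD, the most by 6.97 points. With positions weighted equally the gamma cluster had 21.6%. With exons of 2000 bp the alpha exons had 19.1% and the spaces inside the clusters 44.4%. With at least 5 positions, 0 tiles were above 80%. With the exon split at 1250 bp, a step added after the values were seen, the later part was higher in 9 of 14 genes, with a median difference of 5.22 points, against 18 of 22 and 11.3 points at 1000 bp. Without any 1 column, no exon moved by more than 1.45 points. The planned main window for constant exons held no position. Depth limits the exons with fewest calls, such as Pcdhb7. No paired analysis was possible because the columns carry no group.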
